A study of Caenorhabditis elegans with 14 samples.

Results

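The lysozyme, saposin-like and antibacterial factor genes of Caenorhabditis elegans encode secreted or lysosomal proteins that act on bacteria. They were taken as every array element whose gene symbol begins with lys-, ilys-, spp- or abf-, by the platform annotation (45 elements) or by the coding sequence name printed in the scanner files (4 elements). This gave 49 elements for 44 genes, of 22490 worm elements in all: 12 elements for 10 lys genes, 7 for 6 ilys genes, 24 for 22 spp genes and 6 for 6 abf genes. No measured value entered the choice. RefSeq names 52 genes in this way, and for 7 of them no element was found here. One element counts for a pair of these RefSeq genes, spp-27 by the platform annotation and spp-20 by its coding sequence name, and is 1 gene in the count above.

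Lysozymes cut the peptidoglycan of the bacterial wall. The lys genes encode lysozymes of the kind also found in amoebae, and the ilys genes encode invertebrate-type lysozymes. Saposin-like proteins (spp, also called caenopores) insert into membranes and can open pores in bacteria, and the antibacterial factors (abf) are small cysteine-rich peptides related to defensins. A worm that eats live bacteria uses many of these proteins in the intestine for digestion as well as for defence, and several of the genes are known targets of the p38 MAPK, DBL-1/TGF-beta and insulin pathways.

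The study set the wild strain CB4856 (from Hawaii) against the laboratory strain N2 (Bristol), both grown at one constant temperature on Escherichia coli OP50 as nonmated hermaphrodites. Each of the 14 two-colour arrays carried RNA of CB4856 in one dye and of N2 in the other: 5 arrays at t1 (40 h, juvenile worms), 4 at t2 (96 h, reproductive worms) and 5 at t3 (214 h, old worms). Worms of t2 and t3 had been on FUDR, which blocks the production of offspring, whereas worms of t1 had not. Age and FUDR therefore cannot be told apart between t1 and the later ages. The study reports a longer mean lifespan for N2 than for CB4856, so that their physiological age differed at harvest, most in old worms. Strains were compared here at equal chronological age, so that strain and physiological age cannot be told apart. Several dishes were pooled for each sample, and replicates 4 and 5 of each age, where present, were dye exchanges. In the labels these carry the replicate numbers 1 and 2, as do the arrays called replicates 1 and 2 here. The numbers 4 and 5 were given here to tell them apart. The labels do not say whether the dye exchanges used new RNA extracts, so p-values measure the spread between arrays, which may be partly technical.

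A level below is the log2 of the normalised intensity of an element, and a difference is on the same scale. Differences between strains are CB4856 minus N2 within an array, and differences between ages are later minus earlier age for the mean of both strains on an array. An element was called where limma gave an adjusted p under 0.05 over all 22490 elements, and the fitted differences carry a dye term, so that they can depart slightly from the difference of the group means. Median intensities ran from 191 to 303 per array and dye over local backgrounds of 163 to 183, and 39.3 to 63% of elements were above background. Replicate 3 of t3 stood apart from the other t3 arrays. Its log ratios correlated with theirs at r = 0.171 to 0.321, against 0.423 to 0.626 among the others. Agreement was no better at t1, with r = -0.165 to 0.493 among its arrays and -0.17 to 0.25 for t1 replicate 3. At t2 it was 0.225 to 0.585. Replicate 3 of t3 had the highest mean level of the 5 t3 arrays for 26 of the 49 members (53.1%, against 25.4% of all elements). In 13 members (26.5%, against 1.84% of all elements) it lay more than 1 log2 unit above every other t3 array, and the strain and age differences of the elements it set apart are given with and without it where they were called.

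**Figure D1:**
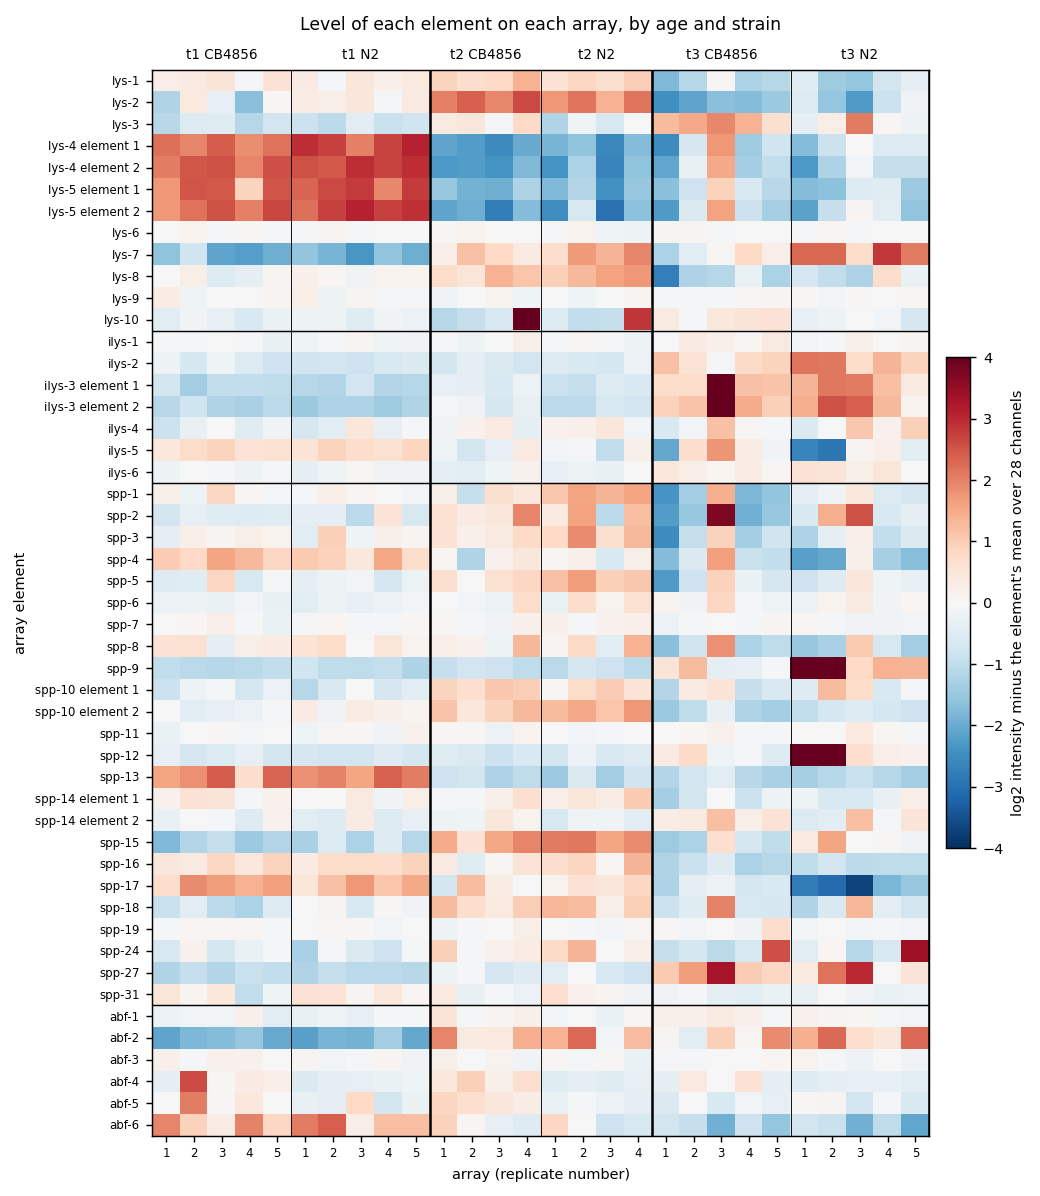
Log2 intensity of the 49 elements (down) on each array (across), by age and with CB4856 left of N2, as the difference from the element's mean over the 28 channels (red above it, blue below it). The lys-4 and lys-5 elements are red at t1 and blue at t2, while spp-9 and spp-12 are darkest red in N2 on replicates 1 and 2 of t3.

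Above background means an intensity over the local background median plus 2 of its SDs. Of the 49 elements, 23 were above background in all 28 channels and 11 in 14 to 27 of them. A further 10 were above it in 1 to 13 channels, and abf-3, lys-6, lys-9, spp-7 and spp-19 in none. More of these elements were above background at t3 than at t1. At t1, 25 elements were above background in every channel and 13 in none. At t2 these counts were 26 and 11, and at t3 they were 32 and 5. Over all elements the share above background in every channel was 38% at t1, 36% at t2 and 38.6% at t3, and the share in none was 37.2%, 39.3% and 27%. The members undetected at t1 and measured at t3 included spp-9, spp-12 and the element annotated as spp-27. Others passed background at t3 in few channels, ilys-1 and spp-11 in 1 each and abf-1 in 2.

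At equal chronological age, the count of members called between the strains was highest in old worms. At t3, 7 of the 49 elements were called (2 higher and 5 lower in CB4856), while 3.42% of all elements were called at this age, 1.57% higher and 1.85% lower. At t1 1 element was called, lower in CB4856 (background 2.65%, and 1.65% lower), and at t2 none (background 2.64%, with 1.08% higher and 1.56% lower). Before adjustment, 8 elements had a p under 0.05 at t1, while 11 did at t2 and 20 did at t3. The share of all elements with such a p was not counted, so that these counts show no excess in the members. The t3 count depended on single arrays: it was 12 without replicate 3, 3 without replicate 1, and 4 without replicate 2, 4 or 5. The calls over all elements, 769 on all arrays, moved in the same directions. They were 979 without replicate 3, and 518, 416, 372 and 417 without replicates 1, 2, 4 and 5. The calls for lys-7, spp-17 and spp-9 stood with each t3 array left out.

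Among the lysozymes, lys-7 differed most between the strains in old worms. lys-7 is a lysozyme gene induced by bacterial infection and known to depend on DAF-16, the transcription factor of the insulin pathway. At t3 its level was 9.73, 10.58, 11.03, 11.79 and 11.26 in CB4856, against 13.29, 13.3, 11.74, 13.82 and 13.09 in N2 (replicates 1 to 5). N2 was higher on all 5 arrays, and the groups met only through the N2 value of replicate 3. The difference was -2.21 (SE 0.32, adjusted p = 0.0013), or 4.63-fold lower in CB4856. At t2 the level was lower in CB4856 on all 4 arrays (11.26 to 12.17, against 11.71 to 12.94 in N2), with a difference of -0.88 (SE 0.37, adjusted p = 0.29) that did not pass the test. At t1 CB4856 had 8.79 to 10.21 and N2 8.66 to 9.43, a difference of 0.1 (SE 0.32, adjusted p = 0.97). The strain difference of lys-7 at t3 departed from that at t1 by -2.31 (SE 0.45, adjusted p = 0.028), a comparison added after the values were seen, for which 0.978% of all elements were called. Up to 10.5% of the pixels of a lys-7 spot were saturated, which can only understate the brighter channel.

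lys-3, another lysozyme gene, ran the other way. Its t3 level was 8.44, 8.69, 9.11, 8.57 and 7.82 in CB4856, against 6.8, 7.44, 9.26, 7.27 and 6.99 in N2. CB4856 was higher on 4 of 5 arrays, and replicate 3 was the exception. The difference of 0.97 (SE 0.22, adjusted p = 0.028) was 1.26 (SE 0.17, adjusted p = 0.0012) without that array, and it was past the threshold in no other omission of a t3 array. At t2 lys-3 was higher in CB4856 on all 4 arrays by 0.88 (SE 0.25, adjusted p = 0.1), short of the threshold, and at t1 the difference was 0 (SE 0.22).

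ilys-2, an invertebrate-type lysozyme gene, was near the limit of detection at t1 and t2 and above background in every channel at t3. Its t3 level was 8.13, 7.48, 6.89, 7.72 and 7.84 in CB4856, against 9.09, 9.06, 7.68, 8.31 and 7.82 in N2. N2 was higher on 4 arrays and level on the other. The difference of -0.78 (SE 0.19, adjusted p = 0.044) was past the threshold in 5 of 12 other settings.

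Among the saposin-like genes, spp-17 and spp-9 differed between the strains in opposite directions. spp-17 had levels of 10.06, 10.91, 11.04, 10.59 and 10.69 in CB4856 at t3, against 8.49, 8.2, 7.58, 9.46 and 9.78 in N2. Every CB4856 value lay above every N2 value. The difference was 1.88 (SE 0.27, adjusted p = 0.0014), 3.67-fold higher in CB4856, and was called in all 13 other settings. At t2 spp-17 was lower in CB4856 on 3 of 4 arrays (difference -0.51, SE 0.32, adjusted p = 0.51), and at t1 it was higher on 4 of 5, by 0.18 (SE 0.27, adjusted p = 0.89). The strain difference of spp-17 thus departed at t3 from that at t2 by 2.38 (SE 0.41, adjusted p = 0.038). It was the only member called for a change of the strain difference between t2 and t3 (background 0.187%, with 0.12% higher and 0.0667% lower), with 11 at an unadjusted p under 0.05. This call was lost without t2 replicate 1, 3 or 4 or t3 replicate 2, 3, 4 or 5, and in 8 of 12 other settings. No member was called for a change of the strain difference between t1 and t2 (background 0.734%), and 5 had an unadjusted p under 0.05. For neither change was the share of all elements at this unadjusted p counted.

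spp-9 is known to be held down by DBL-1 signaling. In no channel of t1 or t2 was it above background, and at t3 it was above background in all 10. Its t3 level was 7.58, 8.32, 6.69, 6.74 and 6.99 in CB4856, against 13.43, 13.56, 7.85, 8.45 and 8.42 in N2. The N2 values of replicates 1 and 2 were far above the other 3, although N2 was higher on every array. The difference was -2.97 (SE 0.52, adjusted p = 0.0059), or 7.83-fold lower in CB4856, and stayed at -2.38 to -3.55 as each t3 array was left out. Its SE draws on all 14 arrays, including those of t1 and t2, where spp-9 was below background. The call stood in 10 of 12 other settings. It was lost with only the t3 arrays and by the linear model of the study's methods. Up to 13% of the pixels of a spp-9 spot were saturated. The change of the spp-9 strain difference between t2 and t3, -3.26 (SE 0.78, adjusted p = 0.2), did not pass the test on all arrays. Without t3 replicate 3 it was -3.94 (SE 0.66, adjusted p = 0.045).

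spp-12 encodes a pore-forming protein reported from neurons of the pharynx. Its t3 values followed the same arrays as those of spp-9. The level was 7.06, 7.5, 6.54, 6.65 and 6.22 in CB4856, above background on 3 arrays, and 10.68, 11.94, 7.4, 6.99 and 6.9 in N2, above background on 5. The high values were again N2 of replicates 1 and 2. The difference was -1.9 (SE 0.44, adjusted p = 0.03), lower in CB4856 on 5 of 5 arrays, and it was past the threshold in 6 of 12 other settings. The call was lost with only the t3 arrays, and without t3 replicate 1, 2 or 5. Its SE also draws on the t1 and t2 arrays, where spp-12 was not above background.

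spp-10, a gene related to prosaposin, whose saposin domains assist lipid-degrading enzymes of the lysosome, had 2 elements, one for each of its annotated transcripts a (element 1) and b (element 2). At t3 element 1 read 10.97, 12.5, 12.64, 11.21 and 11.48 in CB4856, against 11.62, 13.41, 12.86, 11.51 and 12.04 in N2. N2 was higher on all 5 arrays, by less than the spread between arrays of a strain. The difference of -0.52 (SE 0.13, adjusted p = 0.045) was past the threshold in 1 of 13 other settings, and that of element 2, -0.33 (SE 0.14, adjusted p = 0.27), was not called.

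spp-18 was the member called in juvenile worms. Its t1 level was 8.93, 9.37, 8.78, 8.57 and 9.32 in CB4856, against 9.81, 9.96, 9.23, 9.88 and 9.69 in N2. CB4856 was lower on all 5 arrays, with some overlap between the groups. The difference was -0.74 (SE 0.15, adjusted p = 0.013), 1.67-fold lower in CB4856, and no call was made without t1 replicate 1 or 4. At t2 it was -0.16 (SE 0.17, adjusted p = 0.73) and at t3 0.16 (SE 0.15, adjusted p = 0.72).

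**Figure D2:**
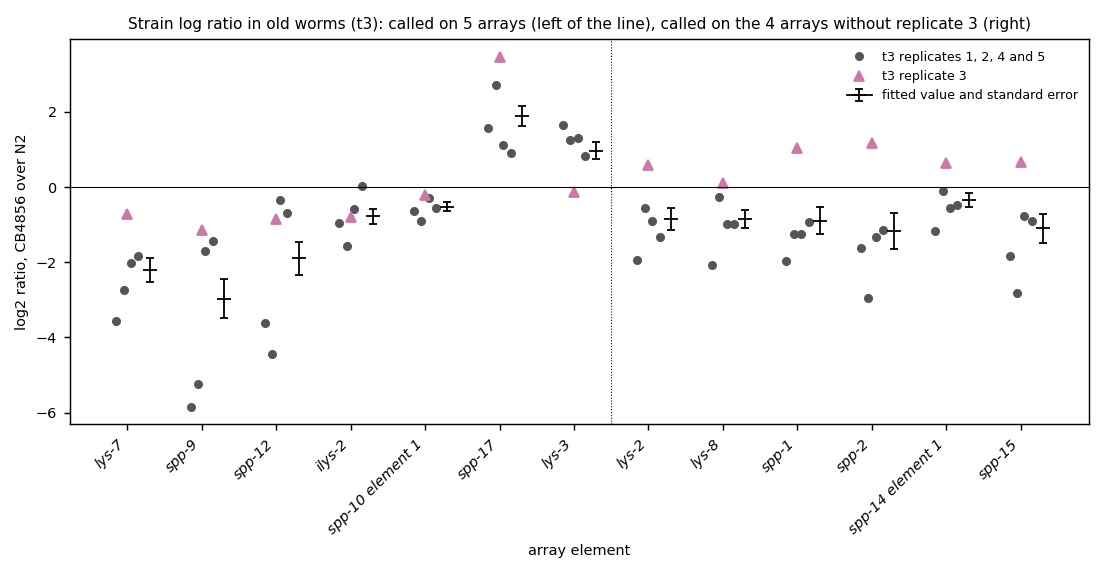
Log2 ratio of CB4856 over N2 on each t3 array (points, replicate 3 as triangles), with the fitted value over all 5 arrays and its SE, for the 7 elements called on all 5 arrays, left of the line, and the 6 further ones called on the 4 arrays without replicate 3, right of it. In the right part the 4 other arrays lie below 0 while replicate 3 lies above it.

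The other 6 elements were called with replicate 3 left out but not on all 5 arrays, each lower in CB4856. They were spp-1 at -1.35 (SE 0.27, adjusted p = 0.014), spp-15 at -1.58 (SE 0.3, adjusted p = 0.012), spp-2 at -1.76 (SE 0.4, adjusted p = 0.027), lys-2 at -1.18 (SE 0.27, adjusted p = 0.029), lys-8 at -1.07 (SE 0.22, adjusted p = 0.018) and element 1 of spp-14 at -0.57 (SE 0.15, adjusted p = 0.049). Element 2 of spp-14 did not follow element 1. Its t3 log ratios were 0.85, 0.82, -0.01, 0.3 and 0.07 (replicates 1 to 5), and it was called in no comparison. spp-2 was singled out after its values were seen. spp-1, which encodes caenopore-1, a pore-forming protein of the intestine, had t3 levels of 8.84, 9.8, 12.66, 9.4 and 9.6 in CB4856, against 10.82, 11.05, 11.61, 10.65 and 10.52 in N2. On replicate 3 CB4856 was the higher strain and on the other 4 arrays N2 was, so that the difference over all 5 arrays was -0.89 (SE 0.35, adjusted p = 0.24). At t2 spp-1 was 11.44, 10.28, 11.84 and 11.62 in CB4856, against 12.27, 12.76, 12.55 and 12.78 in N2, with no overlap, and its difference of -1.33 (SE 0.41, adjusted p = 0.12) did not pass the test. At t1 it was 0.13 (SE 0.35, adjusted p = 0.96). lys-8, an intestinal lysozyme gene that depends on DBL-1 signaling, had t3 levels of 9.28, 10.77, 10.88, 11.76 and 10.76 in CB4856 and 11.35, 11.04, 10.78, 12.73 and 11.74 in N2. CB4856 was lower on 4 of these 5 arrays (difference over all 5 -0.85, SE 0.23, adjusted p = 0.064). It was lower on all 4 t2 arrays (difference -0.53, SE 0.26, adjusted p = 0.4) and on 4 of 5 t1 arrays (difference -0.21, SE 0.23, adjusted p = 0.82).

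lys-1, spp-5, ilys-3, abf-1 and abf-2 are among the best known of these genes, and none of them was called between the strains at any age. For lys-1 the difference was 0.03 (95% interval -0.59 to 0.66) at t1, 0.1 (-0.61 to 0.82) at t2 and -0.17 (-0.8 to 0.45) at t3. For spp-5, which encodes caenopore-5, it was 0.17 (-0.38 to 0.72) at t1, -0.65 (-1.28 to -0.01) at t2 and -0.32 (-0.87 to 0.23) at t3. For abf-2 it was 0.08 (-0.74 to 0.9), -0.06 (-1.01 to 0.88) and -0.87 (-1.69 to -0.06). For element 2 of ilys-3 it was 0.21 (-0.55 to 0.98), 0.62 (-0.27 to 1.5) and 0.25 (-0.52 to 1.01). These intervals are wide, and a missed threshold does not show that the strains were alike. The probe of abf-1 was above background in only 2 of 28 channels. Over the elements not called, differences between strains ran from -0.83 to 0.89 at t1, from -1.33 to 0.93 at t2 and from -1.18 to 1.15 at t3.

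More members were called between ages than between strains. From t1 to t2 17 of the 49 elements were called (10 higher and 7 lower at t2), against a background of 33% of all elements (17.9% higher and 15% lower). Between t2 and t3 18 were called (7 higher and 11 lower at t3), against 18.1% (8.43% higher and 9.72% lower). Between t1 and t3 28 were called (13 higher and 15 lower at t3), against 43% (23.6% higher and 19.3% lower). The members' median difference was 0.08 for t2 against t1, -0.14 for t3 against t2 and -0.03 for t3 against t1, while over all elements it was 0.029, 0.007 and 0.005. Every one of these calls had the same sign within each scan session that held both ages. Without normalization between arrays the median of all elements moved by 0.29 for t3 against t2 and 0.11 for t3 against t1, and the members' calls were 10 higher and 2 lower and 13 higher and 7 lower. Since RNA came from whole worms, fewer cells of a type and less RNA per cell cannot be told apart.

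**Figure D3:**
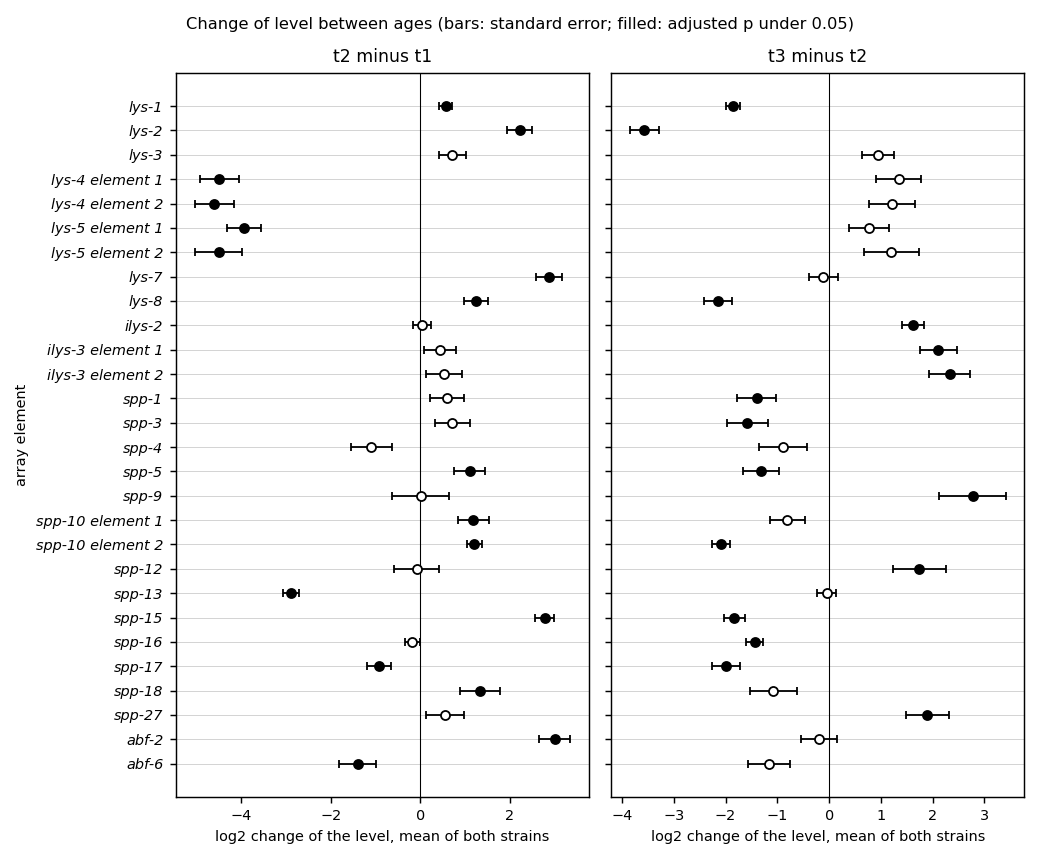
Fitted log2 difference between ages for the 28 elements called between any pair of ages with an absolute difference of at least 1, for t2 against t1 and for t3 against t2, with 1 SE (filled where the adjusted p was under 0.05). lys-4 and lys-5 lie farthest below 0 for t2 against t1, and spp-9 and ilys-3 lie above 0 for t3 against t2.

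The 2 neighbouring lysozyme genes lys-4 and lys-5 on chromosome IV were far higher in juvenile worms than later. The mean level of lys-4 element 1 was 12.3, 12.09, 11.96, 12.02 and 12.36 on the t1 arrays, 7.75, 7.82, 7.18 and 7.86 on the t2 arrays, and 7.61, 8.97, 10.62, 8.75 and 9.07 on the t3 arrays. All t1 arrays were above all later ones, and t3 spread widely with replicate 3 at its top. The difference of t2 against t1 was -4.49 (SE 0.44, adjusted p = 1.1e-05), 22.5-fold lower at t2. For its other element this difference was -4.6 (SE 0.44). lys-5 element 2 read 12.16 to 13 at t1, 7.31 to 8.89 at t2 and 7.98 to 11.06 at t3, and t2 was below t1 (difference -4.51, SE 0.53, adjusted p = 3.9e-05). For its element 1 the difference was -3.95 (SE 0.38). All 4 elements were also lower at t3 than at t1, with differences of -3.38 to -3.14, and of -3.81 to -3.47 without t3 replicate 3. lys-6, the next gene along, was not above background in any channel.

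The other cluster of lysozyme genes, lys-1, lys-2 and lys-3 next to each other on chromosome V, did not move in one way. lys-1 had a mean level of 12.8, 12.65, 12.98, 12.57 and 12.98 on the t1 arrays, 13.23, 13.26, 13.22 and 13.69 on the t2 arrays, and 11.37, 11.21, 11.76, 11.5 and 11.74 on the t3 arrays. The 3 ages did not overlap. lys-1 was higher at t2 than at t1 by 0.57 (SE 0.14, adjusted p = 0.0062) and lower at t3 than at t2 (difference -1.86, SE 0.14, adjusted p = 7.6e-06). lys-2, a gene known to require the p38 kinase PMK-1, read 10.91, 11.68, 11.43, 10.5 and 11.56 on the t1 arrays, 13.24, 13.62, 13.02 and 13.76 on the t2 arrays, and 9.86, 9.53, 9.39, 10.07 and 10.54 on the t3 arrays. The t2 arrays stood above all others. The differences were 2.23 (SE 0.28, adjusted p = 6.5e-05) for t2 against t1 and -3.57 (SE 0.28, adjusted p = 1e-05), or 11.9-fold lower, for t3 against t2. lys-3 was dim at t1 (6.16 to 6.73) and read 6.78 to 7.58 at t2 and 7.4 to 9.19 at t3. It was higher at t3 than at t1 by 1.66 (SE 0.29, adjusted p = 0.00057), and by 1.37 (adjusted p = 0.00019) without t3 replicate 3. At t1 it was above background in 1 of 10 channels, and this difference was 0.99 without background correction and 2.89 with plain subtraction.

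lys-7 was higher in both later ages than in juvenile worms. Its mean level was 9.41, 9.67, 8.78, 9.11 and 9.04 on the t1 arrays, 11.48, 12.43, 12.07 and 12.15 on the t2 arrays, and 11.51, 11.94, 11.38, 12.8 and 12.18 on the t3 arrays. The t1 arrays lay below all others. The differences from t1 were 2.88 (SE 0.28, adjusted p = 1e-05) at t2 and 2.76 (SE 0.26, adjusted p = 4.5e-06) at t3, a t3 mean of strains that differed 4.63-fold at that age. lys-8 read 11.66 to 12.17 at t1, 12.86 to 13.52 at t2 and 10.31 to 12.25 at t3. It was higher at t2 than at t1 by 1.25 (SE 0.27, adjusted p = 0.0031) and lower at t3 than at t2 (difference -2.15, SE 0.27, adjusted p = 0.00023).

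**Figure D4:**
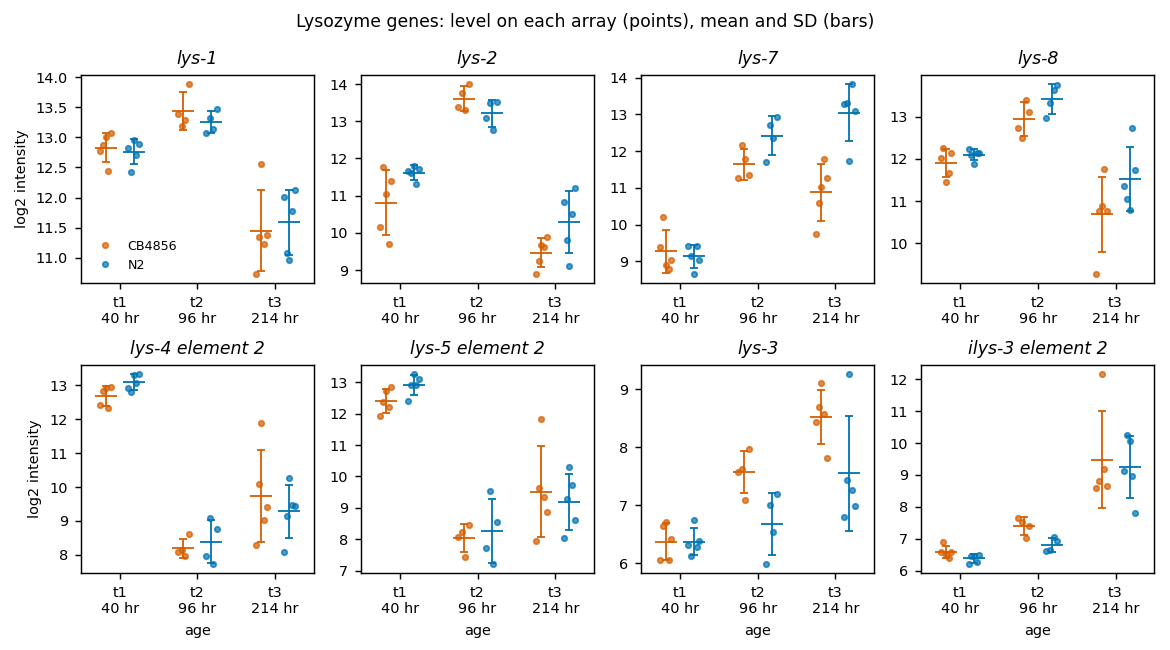
Log2 level of lysozyme elements on each array at t1, t2 and t3, with CB4856 left of N2 at each age. Points are arrays and bars are the mean and SD. For lys-7 at t3, 4 of the 5 N2 values lie above every CB4856 value, and element 2 of ilys-3 has its highest value in CB4856 of t3 replicate 3.

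The invertebrate-type lysozymes that were called between ages were higher in old worms. No ilys element was called between t1 and t2 (33% of all elements were). At t3, 4 of 7 were higher than at t2 (8.43% of all elements) and 5 of 7 were higher than at t1 (23.6% of all elements). The 5 were both elements of ilys-3, ilys-2, and the near-background ilys-1 and ilys-6, the latter above background in 5 of 28 channels. ilys-5, above background in all 28, was not called. It read 12.85 to 13.17 at t1 and 10.02 to 13.31 at t3, where only replicate 3 was not below all t1 arrays. ilys-3 acts in the pharynx and intestine in the breakdown of ingested bacteria. Its element 2 read 6.4, 6.68, 6.48, 6.33 and 6.55 on the t1 arrays, 7.13, 7.09, 7.03 and 7.16 on the t2 arrays, and 8.86, 9.54, 11.12, 9.08 and 8.24 on the t3 arrays. The ages did not overlap, and replicate 3 was the highest at t3. The difference of t3 against t2 was 2.33 (SE 0.4, adjusted p = 0.0019), and that of element 1 was 2.11 (SE 0.36, adjusted p = 0.0017). With each array left out these stayed at 1.88 to 2.55 and 1.69 to 2.31, lowest without t3 replicate 3. ilys-2, its neighbour on chromosome IV, read 6.21 to 6.45 at t1, 6.31 to 6.46 at t2 and 7.28 to 8.61 at t3. It was above background in 1 of 8 channels at t2, so that its fitted difference of t3 against t2, 1.62 (SE 0.21, adjusted p = 0.00026), depends on how background was handled. It was 0.98 without background correction and 2.74 with plain subtraction. ilys-1, the third of this cluster, was above background in 1 of 28 channels.

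Several saposin-like genes had their highest level in reproductive worms. spp-15 read 8.95, 9.61, 9.36, 9.49 and 9.31 on the t1 arrays, 12.25, 11.82, 12.04 and 12.4 on the t2 arrays, and 9.96, 10.63, 10.82, 10.15 and 9.91 on the t3 arrays. The 3 ages did not overlap. It was higher at t2 than at t1 by 2.78 (SE 0.21, adjusted p = 1.5e-06), 6.85-fold, and lower at t3 than at t2 (difference -1.83, SE 0.21, adjusted p = 0.00014). spp-5 read 12.9 to 13.89 at t1, 14.34 to 14.49 at t2 and 12 to 14.23 at t3, with differences of 1.11 (SE 0.35, adjusted p = 0.029) and -1.31 (SE 0.35, adjusted p = 0.023). The call for t2 against t1 was lost without t1 replicate 1, 2 or 4 or any 1 of the 4 t2 arrays, and that for t3 against t2 without t2 replicate 1 or 4 or t3 replicate 2. spp-10 element 2 read 9.75 to 10.23 at t1, 11.02 to 11.57 at t2 and 8.82 to 9.66 at t3, with differences of 1.21 (SE 0.17, adjusted p = 0.00017) and -2.09 (SE 0.17, adjusted p = 1.5e-05). Its element 1 was higher at t2 than at t1 by 1.19 (SE 0.34, adjusted p = 0.016), a call lost without t2 replicate 4, and its change between t2 and t3 was not called. With lys-1, lys-2 and lys-8 these made 6 elements called higher at t2 than at t1 and lower at t3 than at t2, of which spp-5 rests on single arrays as given above. Both comparisons use the same t2 arrays, and the share of all elements called in this way was not counted.

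spp-18 was higher at t2 (10.15 to 11.13) than at t1 (9.01 to 9.66) by 1.33 (SE 0.45, adjusted p = 0.038). This call was lost without t1 replicate 1, 2, 3 or 4 or t2 replicate 1, 2 or 4, and in 5 of 11 other settings. Its t3 arrays read 8.81, 9.29, 11.49, 9.34 and 9.13, with replicate 3 apart from the rest, and no change between t2 and t3 was called.

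Other saposin-like genes were lower in old than in reproductive worms without a call between t1 and t2. spp-1 read 11.11 to 11.65 at t1, 11.52 to 12.2 at t2, and 9.83, 10.43, 12.13, 10.02 and 10.06 at t3, and its difference of t3 against t2 was -1.4 (SE 0.38, adjusted p = 0.025). It was -1.85 (adjusted p = 8.9e-05) without t3 replicate 3, and the call was lost without t2 replicate 3 or 4 or t3 replicate 1, 2 or 4. spp-3 was lower as well (difference -1.58, SE 0.4, adjusted p = 0.016), as was spp-16 (difference -1.44, SE 0.17, adjusted p = 0.00015). For spp-3 it was -1.98 (adjusted p = 0.00061) without t3 replicate 3, and the call was lost without t2 replicate 4. spp-16 had little spread at t3 (8.44 to 8.8), below all t2 arrays (9.65 to 10.52). spp-4, in the same run of spp genes on chromosome X as spp-3 and spp-5, was lower at t3 than at t1 (difference -1.98, SE 0.43, adjusted p = 0.0026), with t3 replicate 3 at 10.19 and the other t3 arrays at 7.29 to 8.15. Without that array its difference was -2.48 (adjusted p = 1.2e-06).

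spp-17 and spp-13 were at their highest in juvenile worms. spp-17 read 11.88, 12.82, 12.98, 12.53 and 12.85 on the t1 arrays, 10.97, 12.2, 11.65 and 11.69 on the t2 arrays, and 9.28, 9.55, 9.31, 10.03 and 10.24 on the t3 arrays. It was lower at t2 than at t1 (difference -0.93, SE 0.27, adjusted p = 0.019) and lower at t3 than at t2 (difference -2, SE 0.27, adjusted p = 0.00041), the 1 member called lower at both steps. The call for t2 against t1 was lost without t1 replicate 2 or 3 or t2 replicate 1 or 4. The t3 mean joins strains that differed 3.67-fold. spp-13 read 9.04 to 9.68 at t1, 6.17 to 6.85 at t2 and 6.15 to 6.83 at t3, where it was near background. The difference of t2 against t1 was -2.88 (SE 0.18, adjusted p = 2.9e-07).

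**Figure D5:**
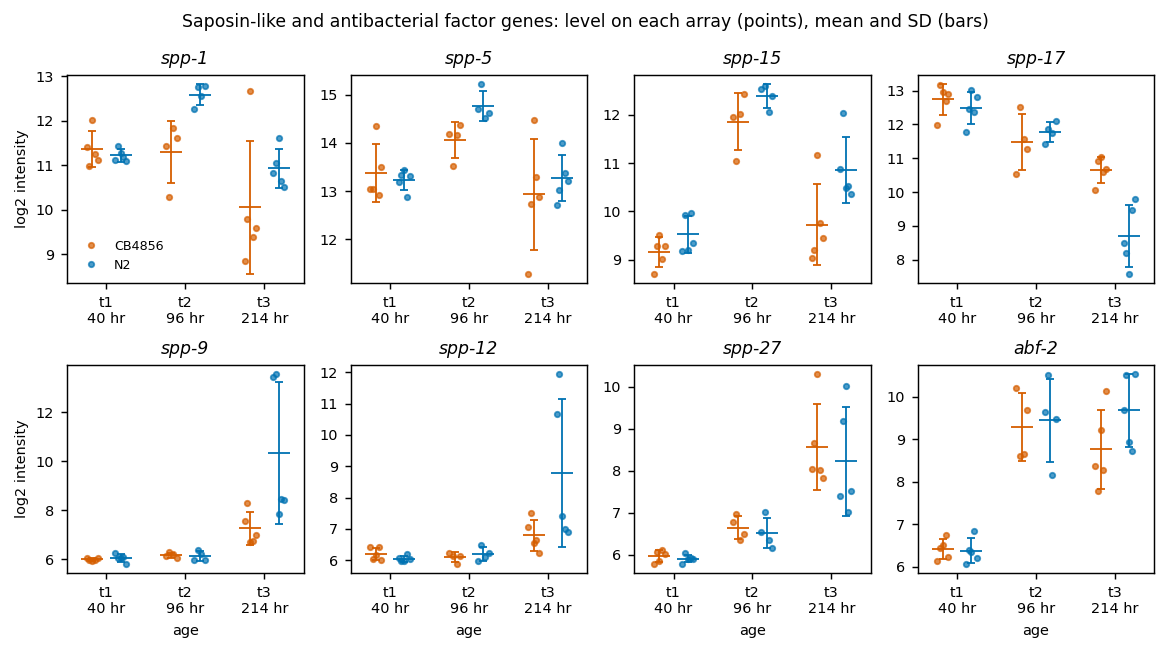
Log2 level of saposin-like and antibacterial factor elements on each array at t1, t2 and t3, with CB4856 left of N2 at each age. Points are arrays and bars are the mean and SD. spp-17 in N2 lies below CB4856 at t3, and spp-9 and spp-12 have 2 high N2 arrays at t3.

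spp-9, spp-12 and the element annotated as spp-27 were measured in old worms and hardly before. For spp-9 the mean level was 5.94 to 6.17 at t1 and 6 to 6.33 at t2, where no channel was above background, and 10.5, 10.94, 7.27, 7.59 and 7.7 at t3. Its t3 level was at least 2.89-fold higher than at t2 and at least 3.02-fold higher than at t1 (adjusted p = 0.011 and 0.0023), where the dim side was set to the lowest signal among elements above background on each array. spp-12 was likewise at least 1.75-fold and 1.83-fold higher (adjusted p = 0.034 and 0.013). Its call against t2 was lost without t3 replicate 1 or any 1 of the 4 t2 arrays. The mean level of spp-12 was 8.87, 9.72, 6.97, 6.82 and 6.56 at t3, against 5.99 to 6.32 at t2. For spp-9 and spp-12 the t3 mean joins strains called different at that age, with the high values in N2 of replicates 1 and 2. The third element carries the coding sequence name K04A8.8, which the platform annotation gives as spp-27 and RefSeq as spp-20, its neighbour, so that its gene is uncertain. It read 5.78 to 6.05 at t1, 6.33 to 6.98 at t2, and 7.72, 8.92, 10.16, 7.52 and 7.67 at t3. It was higher at t3 than at t2 by 1.9 (SE 0.42, adjusted p = 0.0084), or by 1.45 (adjusted p = 0.0023) without t3 replicate 3, and at least 2.42-fold higher than at t1, where it was not above background. At t2 it was above background only on replicate 2, so that the difference from t2 depends on how background was handled. That difference was 1.21 without background correction and 2.94 with plain subtraction. Its call was lost with dye exchanges averaged.

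Of the antibacterial factors, abf-2 was the one that rose strongly with age. abf-2, whose peptide kills bacteria in vitro and which is expressed in the pharynx, read 6.11, 6.42, 6.44, 6.79 and 6.23 on the t1 arrays, 9.93, 9.57, 8.41 and 9.59 on the t2 arrays, and 9.03, 9.16, 9.08, 8.5 and 10.34 on the t3 arrays. At t1 it was above background in 1 of 10 channels. It was higher at t2 than at t1 by 3.01 (SE 0.35, adjusted p = 4.2e-05), and at t3 than at t1 by 2.82 (SE 0.33, adjusted p = 2.5e-05). No fold is given, since the difference of t2 against t1 was 1.97 without background correction and 4.45 with plain subtraction. Its neighbour abf-1 was not above background at t1 or t2, so that no fold is given for its t3 call. abf-6 was lower with age, at 9.36 to 11.07 at t1, 8.5 to 9.96 at t2 and 7.16 to 8.35 at t3. It was lower at t2 than at t1 (difference -1.4, SE 0.41, adjusted p = 0.019), a call lost without t1 replicate 1 or t2 replicate 3 or 4, and at t3 than at t1 (difference -2.56, SE 0.38, adjusted p = 0.00017). abf-5, next to abf-6 on chromosome X, was called in no comparison.

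Of the remaining elements, ilys-1, ilys-6, spp-14 element 1 and spp-31 were called between ages with smaller differences, and 16 elements were called in none of the comparisons.

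The pathways and tissues around these genes were counted from fixed lists of genes. Between t2 and t3, where 9.72% of all elements were lower and 8.43% higher, 11 of 20 elements of other infection response genes (55%) were lower and 1 was higher (median -1.05), with clec-85 at -3.36 (SE 0.4), irg-7 at -2.83 (SE 0.25) and irg-3 at -2.73 (SE 0.44). Of 35 elements of intestinal and lysosomal hydrolases 13 (37.1%) were lower and 3 higher (median -0.8). Of the DBL-1 pathway 6 of 20 elements (30%) were lower and none higher (median -0.24), including 3 elements of lon-1, its best known target in body size. Of the p38 pathway 2 of 35 (5.71%) were lower and none higher, and of the insulin pathway 3 of 23 (13%) were higher and 1 lower. Between t1 and t2, where 17.9% of all elements were higher and 15% lower, the p38 list had 8 higher (22.9%) and 1 lower, with tir-1, the adaptor at its head, at 1.46 (SE 0.28). The insulin list had 7 higher (30.4%) and 1 lower. Among intestinal GATA factors and other regulators of defence, 2 of 22 elements were higher and 3 lower (9.09% and 13.6%) in each of the 2 steps. elt-2, the main GATA factor of the intestine, was lower at t3 than at t2 (difference -0.92, SE 0.23). Between the strains, the infection response list had 1 element higher and 3 lower in CB4856 at t1, 3 lower at t2, and 3 higher and none lower at t3. irg-4 was lower at t1 (difference -2.34, SE 0.23) and at t2 (difference -1.76, SE 0.26). At t3 clec-71 was higher by 1.44 (SE 0.15), dod-24 by 1.06 (SE 0.26) and fmo-2 by 0.46 (SE 0.08).

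Markers of several tissues moved with age as well. Of 15 elements of intestine markers 12 were lower and none higher at t2 than at t1 (median -1.46), and 11 were lower and 1 higher at t3 than at t2 (median -0.92). Their summed intensity was 55600 to 68300 in CB4856 and 52200 to 71700 in N2 at t1, and 20900 to 31200 in CB4856 and 17700 to 27400 in N2 at t2. At t3 it was 9240, 29900, 42600, 19000 and 17400 in CB4856, against 8290, 7120, 40000, 17300 and 10500 in N2, highest in replicate 3 for both strains. In old worms 5 of these 15 elements (33.3%, against 1.57% of all elements) were called higher in CB4856 and none was lower. Of 12 elements of body wall muscle 10 were lower at t2 than at t1 and 8 lower at t3 than at t2, and 4 (33.3%) were higher in CB4856 at t3. Pharynx markers summed to 6550 to 12600 in CB4856 and 6780 to 12200 in N2 at t1, and to 1250 to 2950 in either strain later. Of 11 pharynx elements 6 were lower at t2 than at t1, and 1 was higher and 1 lower at t3 than at t2. Germ line markers were higher at t2 than at t1 in 6 of 9 elements. Of 6 hypodermis elements 5 were lower at t2 than at t1 and 1 was lower at t3 than at t2. Of 13 neuron elements 3 were higher and 3 lower at t2 than at t1 (23.1% each). Over all elements these shares were 17.9% and 15%. Between t2 and t3, 5 neuron elements were lower and none was higher. Each element of the intestine, muscle, germ line and hypodermis lists was above background in at least 1 channel of each age. The part of these shifts in the results for the lysozyme, saposin-like and antibacterial factor genes was not tested.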

How the data were processed

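RNA of CB4856 and N2 worms at 3 ages was measured on 14 two-colour arrays of 60-mer probes designed on N2. The deposited scanner files give the mean intensity of each spot in both dyes and its local background, not yet normalized. The scanner software also gave the percentage of saturated pixels of a spot, used as deposited. A further deposited table holds log2 ratios that the authors made with limma. Its ratios turned out to run as N2 over CB4856 (r = -0.877 to -0.989 with the ratio of CB4856 over N2) and served as an alternative. Here intensities were corrected with normexp (offset 50), normalized by loess within arrays and by quantiles between arrays (R 4.3.3, limma 3.58.1, statmod 1.5.0). Control spots and empty spots (742 of 23232) were left out of the fits.

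limma was fitted over all 14 arrays with a coefficient per age and a dye orientation term, to the log ratio for strains and to the mean of both channels for ages. P-values were adjusted by Benjamini and Hochberg over 22490 elements, and calls were made under 0.05. The fitting steps were tested on simulated data. Values are described for members called between strains or in a change of the strain difference, for members called between ages with a log2 difference of at least 1, and for lys-1, lys-7, lys-8, ilys-3, spp-1, spp-5, abf-1 and abf-2. From the lists of other genes, up to the 3 called elements with the largest differences could be named. The members and lists were chosen with earlier results of these data known. The labels call t1 worms late L3 and the methods late L4. Names, chromosomes and neighbours come from RefSeq annotation. No coordinates or probe sequences are given, because the build behind the array is not given in the sources used here. The number of arrays limits the precision.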

Additional observations from a re-analysis of the deposited data

Results flagged for a closer look

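Dixon's test for 1 outlying array was run over 174 sets of values of the described elements (the log ratio or the mean level, per age) and marked 12, where chance marks about 1 in 20. It marked 9 more among the other elements.

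On t3 replicate 3 the mean level was 10.5 for ilys-3 element 1 (8.15 to 8.83 on the other arrays), 12.13 for spp-1 (9.83 to 10.43) and 11.49 for spp-18 (8.81 to 9.34). The log ratio of spp-16 on this array was 0.51, against -0.26 to -0.11 on the others. On t2 arrays, abf-2 had a log ratio of -1.91 on replicate 2 (others 0.21 to 0.57), abf-6 one of 0.51 on replicate 3 (0.06 to 0.1) and lys-7 one of -1.59 on replicate 4 (-0.56 to -0.45). The t2 mean level of lys-1 was 13.69 on replicate 4 (others 13.22 to 13.26) and that of lys-4 element 1 was 7.18 on replicate 3 (7.75 to 7.86). On t1 arrays, lys-4 element 1 had a log ratio of 0.4 on replicate 3 (others -0.93 to -0.75), spp-3 one of -0.69 on replicate 2 (0.03 to 0.26) and spp-4 one of 1.17 on replicate 3 (-0.24 to 0.12).

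A change of the strain difference between ages was called, by a test of that change itself, for spp-17 and lys-7. For spp-17 it was 2.38 between t2 and t3, a call kept in 4 of 12 other settings and 2 of 9 omissions of an array. For lys-7 it was -2.31 between t1 and t3, a comparison added after the values were seen. The lys-7 change was not recomputed in other settings or with arrays left out.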

How the results depend on the processing

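Of the values of single elements under alternatives, 1154 kept their side of the threshold and direction, 162 lost the call and 1 changed its direction: without normalization between arrays spp-10 element 2 was 0.39 for t3 against t1 (adjusted p = 0.45), against -0.88 in the fit reported. The balance of higher and lower members did turn: for t3 against t2 it was 10 and 2 without normalization between arrays, against 7 and 11, and for the strains at t3 it was 3 and 2 with the replicate block, 5 and 4 in the authors' table and 2 and 1 by the methods' linear model, against 2 and 5. The count of members called between strains at t1, 1 in the report, was 0 with plain background subtraction, with only the t1 arrays, with dye exchanges averaged, at an adjusted p under 0.01 and in the authors' table. At t2, 0 in the report, it was 1 with plain background subtraction (abf-4), 1 in the authors' table (lys-10) and 2 by the methods' linear model at an unadjusted p under 0.01 (abf-4 and abf-5). At t3, 7 in the report, it was 4 without background correction, 4 with plain subtraction, 4 among elements above background on 14 or more of the 28 channels, 4 with the scan session as a block, 3 at an adjusted p under 0.01, 3 by the methods' linear model and 1 with only the t3 arrays, where spp-17 was called (1.8, SE 0.26, adjusted p = 0.039) and lys-7 was not. For t2 against t1, 17 in the report, it was 10 without normalization between arrays and 28 with only the arrays of those ages. For the change of the strain difference, the authors' table gave 1 (lys-10) in place of 0 for t2 against t1. For t3 against t2, with 1 in the report, it gave 6, and the count was 0 without background correction, with plain subtraction, with only those arrays, without the dye term, with the scan session block, with dye exchanges averaged and at an adjusted p under 0.01. The authors' table holds values on few t3 arrays for some members (2 of 5 for spp-9, 1 of 5 for spp-12). The cause of these changes was not tested.

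With each array left out in turn, the counts ran from 0 to 1 at t1, 0 to 1 at t2, 3 to 12 at t3, 13 to 17 for t2 against t1, 16 to 23 for t3 against t2, 26 to 29 for t3 against t1, 0 to 0 and 0 to 1 for the changes of the strain difference. The call at t2 was spp-16 without replicate 3 (-0.86, SE 0.19, adjusted p = 0.036). Counts over all elements at t3 ran from 266 (dye exchanges averaged) to 1594 (authors' table), against 769 in the report, and for t3 against t2 from 2044 to 6323, against 4081.

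The replicate numbers in this paragraph are those of the labels, where each dye exchange shares its number with another array of its age. The study's methods describe dishes started together and harvested in turn at each age, so that samples of different ages may share a culture. The labels do not say that arrays of different ages with the same label number share a batch. Over 23 such pairs, deviations correlated at -0.31 to 0.33 for log ratios and -0.09 to 0.28 for levels, above 0.1 in 7 and 8 pairs, so that they were not taken as paired, although 10 and 11 of 14 arrays correlated best with their own number. With the label number as a block (the replicate block) the counts were 1 at t1, 0 at t2, 5 at t3, 16 for t2 against t1, 20 for t3 against t2, 31 for t3 against t1, and 0 and 0 for the changes of the strain difference. The strain calls at t3 for ilys-2, spp-12 and spp-10 element 1, the change for spp-17 and the t2 against t1 call for spp-18 were lost with this block, and spp-4 was called at t3 (1.05, SE 0.22, adjusted p = 0.026).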

Other observations

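The following elements were picked after their values were seen. abf-4 was above background only in CB4856, in 8 of 14 channels, and never in N2. Its log ratio was above 0 on all 14 arrays, with 2.97 on t1 replicate 2 and 0.02 on t3 replicate 5 at the ends of the range. Its difference was 0.89 (SE 0.31, adjusted p = 0.2) at t1, 0.93 (SE 0.36, adjusted p = 0.24) at t2 and 0.41 (SE 0.31, adjusted p = 0.63) at t3, so that it was called at no age.

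A single array set the level of 2 further elements. lys-10 had a mean level of 10.71 on t2 replicate 4, against 5.92 to 6.07 on the other t2 arrays, with 11.71 in CB4856 and 9.72 in N2. spp-24 had a mean level of 11.03 on t3 replicate 5, against 6.92 to 7.72 on the other t3 arrays, with 10.62 in CB4856 and 11.44 in N2.

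ilys-5 was higher in CB4856 on all 5 t3 arrays, at 13.06 in CB4856 and 9.47 in N2 on replicate 2 and at 14.12 and 12.49 on replicate 3, while its log ratio on the other 3 arrays was 0.56, 0.02 and 0.28. On t3 replicate 3, spp-2 reached 14.15 in CB4856 and 12.96 in N2, against 8.18 to 8.89 and 9.8 to 11.83 on the other t3 arrays.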
